A study of Mus musculus with 2 samples.

Results

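Rab GTPases, Vps proteins and sorting nexins are the switches, tethers and coats that move cargo between the endoplasmic reticulum, the Golgi, endosomes and lysosomes. The genes described here were chosen by name: every probe of the authors' value table whose mouse gene symbol was Rab, Vps or Snx followed by a number, with 1 Vps gene left out. This gave 106 probes for 84 genes (46 Rab, 33 Vps and 27 Snx probes) among 9761 probes with a gene symbol. They were compared between SN4741 cells after overexpression of Oxi-beta for 12 h and control SN4741 cells at 0 h. SN4741 is a mouse cell line, labelled as immortalized dopaminergic neuronal cells, and no further allele or agent is labelled for either group. Each group was 1 single-colour Illumina bead array hybridised with RNA pooled from 3 samples, so there was no replicate, no test could be made, and every difference below describes 2 arrays. The labels do not say that control cells received an empty construct, and overexpression and the 12 h cannot be told apart.

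Rab proteins are prenylated GTPases that sit on a given membrane when loaded with GTP and recruit effectors there. Exchange factors (GEFs) load GTP and GTPase-activating proteins (GAPs) turn the switch off. Vps genes carry the name of yeast mutants that missort vacuolar proteins, and most of their products form complexes, among them the endosomal ESCRT machinery, the HOPS and CORVET tethers of lysosomes and endosomes, the GARP tether of the Golgi, and retromer, which retrieves receptors from endosomes. Sorting nexins bind phosphoinositides of endosomes through a PX domain, and those with a BAR domain bend membranes into tubules. In neurons these routes carry receptors, synaptic vesicle proteins and lysosomal enzymes along the axon and dendrites.

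Of 24613 probes, 8799 were detected on the overexpression array and 8814 on the control array at a detection p-value under 0.01, a measure of a probe's signal against negative controls. The lowest detected signals were 196 and 201 on these arrays, and the median detected signals 896 and 950.1. Differences given below are log2 values of the overexpression array minus the control array after background correction and quantile normalization, and signals are the deposited values without normalization. Of the probes with a symbol, 8005 were detected on at least 1 array, and the central 95% of their differences ran from -0.35 to 0.35. The literature uses Oxi-beta as a name of Tnfaip8l1, for which there were 0 named probes, and the probes without a symbol were not searched for it, so the overexpressed gene itself was not read here. Of 14 markers of dopamine neurons 3 had a named probe, all 3 were detected, and they lay above 0 (Nr4a2 at 0.24, En1 at 0.15 and Foxa2 at 0.10). Nr4a2 had 295 on the overexpression array and 274 on the control array, and Foxa2 257 and 255, near the lowest detected signals. In the authors' values the 3 genes were at 0.17, 0.12 and 0.067. The defining markers Th and Slc6a3 were among the dopamine neuron markers with no named probe. All 9761 named probes had a detection p under 0.05 on at least 1 array, so dimmer probes were not among them. A gene without a named probe, Tnfaip8l1 included, may thus be on the platform and undetected here. Of the 5 pan-neuronal markers with a named probe 4 were detected, Stmn2 at -0.19, Syn1 at 0.17, and Tubb3 and Nefm on 1 array each, with 202 and 226 on the overexpression array and 181 and 185 on the control array. Of the 6 fibroblast or mesenchymal markers with a named probe 4 were detected, all below 0, from -0.40 (Pdgfrb) to -0.030 (Acta2). The astrocyte marker Slc1a3 was detected on 1 array, with 182 on the overexpression array and 239 on the control array, and Gja1 was at 0.002. The oligodendrocyte marker Cnp was at 0.26, with 296 on the overexpression array and 273 on the control array, and the endothelial marker Flt1 was at 0.015. The part of cell state in the values below was not tested.

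The trafficking genes as a set were at nearly the same level on both arrays. Of the 106 member probes 93, for 77 genes, were detected on both arrays, 0 on 1 array only, and 13 on neither. Like all named probes, the 106 had a detection p under 0.05 on at least 1 array. RefSeq lists 122 genes with such symbols, the Vps gene left out not counted. Genes whose probes were dimmer than this limit, or that had no probe, are missing here. The mark of a difference was 0.32 on the log2 scale, about the edge of the central 95% of differences. On the overexpression array 2 of the 93 were lower by at least that much, Snx1 and one probe of Snx7, beside 3.32% of all 8005 detected probes. None was higher by that much, beside 3.12%, and none was 1.5-fold lower or higher, beside 0.487% and 0.612%. The 2 lower probes are 2.15% of the 93. In the authors' values and without background correction the same 2 probes passed the mark, beside 1.20% of all detected probes, so the order of these shares depends on the background step. In all, 48 of the 93 lay within 0.1 of no difference and 74 within 0.2. The shares were similar over all 8005 detected probes, of which 4226 lay within 0.1 and 6446 within 0.2. The median difference was -0.040 over the members and -0.002 over all detected probes. Differences below 0 were found for 56 of 93 members (60.2%), beside 50.5% of all detected probes.

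By family, the median was -0.037 for 40 Rab probes of 32 genes, -0.035 for 29 Vps probes of 25 genes, and -0.063 for 24 Snx probes of 20 genes. The Rab differences ran from -0.28 to 0.31, those of Vps from -0.29 to 0.25 and those of Snx from -0.43 to 0.22. The Snx probes were the family with 2 members past the 0.32 mark, and the Rab and Vps probes had 0. Within 0.1 of no difference lay 24 of 40 Rab, 12 of 29 Vps and 12 of 24 Snx probes, beside 4226 of all 8005 detected probes. Within 0.2 lay 35 Rab, 24 Vps and 15 Snx probes, beside 6446 of the 8005. The Snx probes thus spread more widely, with a 25th percentile of -0.20 beside -0.096 over all detected probes.

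**Figure D1:**
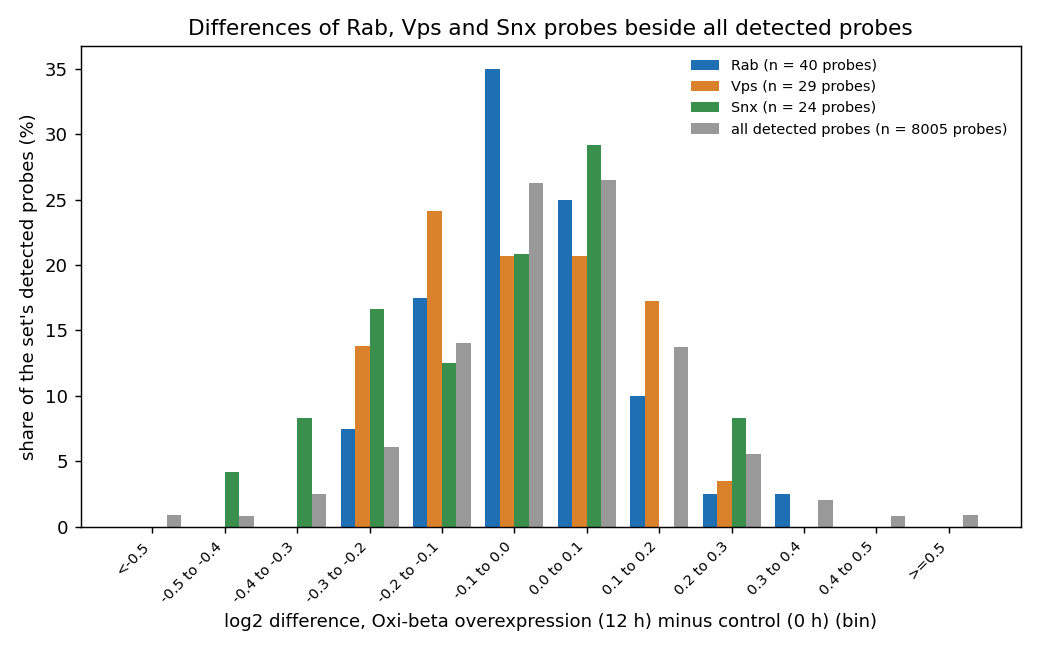
Share of detected probes (%, y axis) in bins of the log2 difference, Oxi-beta overexpression minus control (x axis), for 40 Rab, 29 Vps and 24 Snx probes and for all 8005 detected probes with a symbol (grey). The bars of the 3 families lie mostly within 0.2 of 0, and only Snx probes reach below -0.3.

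Snx1 encodes a PX and BAR domain protein that tubulates endosomes and pairs with SNX5 or SNX6 in retromer-linked sorting. Its probe (ILMN_2605465) had a signal of 873 on the overexpression array and 1220.1 on the control array. The normalized difference was -0.43, or 1.34-fold lower, the lowest among the 93 detected members. Snx7, a BAR-domain relative of SNX4 with a part in recycling and autophagy, had 2 detected probes. The first (ILMN_1245460) had 888 on the overexpression array and 1182 on the control array, a difference of -0.36 or 1.28-fold lower. The second had 713 and 853 on these arrays and -0.19, so both lay below 0 and 1 passed the mark. All 4 of these signals, and both of Snx1, stood well above the lowest detected signals.

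The promoters of these 2 genes are shown because theirs were the only differences of detected members past 0.32. They are 300-base windows around the RefSeq gene start (GRCm38.p6), written along the gene's strand. Capitals would mark matches on either strand to CACGTG, to its longer form TCACGTGA, which contains it, or to GAAANNGAA. CACGTG is the core of E-boxes and of the CLEAR element bound by TFEB near lysosomal genes. GAAANNGAA is part of the pattern of interferon-stimulated response elements. Neither window holds any of the 3 sets of letters.
Snx1, chr9:66124837-66125136, minus strand: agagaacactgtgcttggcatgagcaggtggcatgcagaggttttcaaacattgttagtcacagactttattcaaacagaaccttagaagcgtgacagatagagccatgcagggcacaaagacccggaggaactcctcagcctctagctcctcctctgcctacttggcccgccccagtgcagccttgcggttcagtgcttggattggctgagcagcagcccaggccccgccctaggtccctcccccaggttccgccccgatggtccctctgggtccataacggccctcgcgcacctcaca
Snx7, chr3:117868887-117869186, minus strand: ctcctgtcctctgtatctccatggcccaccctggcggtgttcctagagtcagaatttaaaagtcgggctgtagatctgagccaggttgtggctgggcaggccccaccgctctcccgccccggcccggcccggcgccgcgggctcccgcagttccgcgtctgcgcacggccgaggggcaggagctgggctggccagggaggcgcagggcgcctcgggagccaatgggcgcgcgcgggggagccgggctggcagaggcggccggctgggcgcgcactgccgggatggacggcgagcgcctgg
The Snx1 window had 58.3% G and C with 10 CpG dinucleotides, and the Snx7 window 73.7% with 32.

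RefSeq promoter windows were found for 64 of the 84 member genes, 74 windows in all. CACGTG stood in 14.9% of these windows and in 7.15% of all 32851 windows. TCACGTGA stood in 8.11% of member windows and 0.974% of all windows, and GAAANNGAA in 5.41% and 8.56%. The member windows were richer in G and C than all windows (medians 63.2% and 52.7%), and the part of base composition in these shares was not tested. The 5 genes with TCACGTGA are shown with 11 bases on either side, the match in capitals, because they include subunits of the lysosomal tether HOPS (Vps16, Vps33a) and of retromer (Vps26a). They are given along the strand of the gene on GRCm38.p6.
Vps16, chr2:130424290-130424319, plus strand: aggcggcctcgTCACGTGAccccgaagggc
Vps33a, chr5:123573026-123573055, minus strand: agcgactcggaTCACGTGAacgtcccgtca
Vps33a, chr5:123573010-123573039, minus strand: tgaacgtcccgTCACGTGAcgcaggcggcg
Vps26a, chr10:62486970-62486999, minus strand: cgcacggctcgTCACGTGAcaactagctct
Vps26a, chr10:62486732-62486761, minus strand: atggcctacggTCACGTGAcgggcggcggg
Rab21, chr10:115315604-115315633, minus strand: gcccaccgcggTCACGTGAcgaggggtgtg
Rab24, chr13:55321961-55321990, minus strand: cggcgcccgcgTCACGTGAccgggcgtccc
The detected probes of genes with TCACGTGA had a median difference of -0.059 over 8 probes, and those of genes without it -0.046 over 67. For CACGTG the medians were -0.011 over 12 probes and -0.051 over 63. GAAANNGAA was found in Snx10, Vps26a, Vps41 and Vps45, whose 4 detected probes ran from -0.29 to 0.025, with a median of -0.080, against -0.046 over the 71 probes of genes without it. With 4 to 12 probes on one side these medians are a description only.

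Among Rabs of the endoplasmic reticulum and Golgi, 4 of 8 probes lay below 0 and 4 above, with a median of 0.021. Rab1a, which acts in transport from the endoplasmic reticulum to the Golgi, had a signal of 1066 on the overexpression array and 1280.3 on the control array (-0.19), while its close relative Rab1b was at -0.030. Rab6b, an isoform of the Golgi regulator RAB6 that is enriched in neurons, had signals of 301 and 274 on the same arrays. Its difference of 0.29 was among the highest Rab values, at signals near the lowest detected. The 2 probes of Rab6a went in opposite directions: one had 855 on the overexpression array and 1088 on the control array (-0.28, the lowest Rab value), and the other 342 and 332 (0.16). Rab2a, a Golgi and autophagy regulator, had 13232 on the overexpression array and 14276 on the control array (-0.047). Rab18, found on lipid droplets and the endoplasmic reticulum, was at 0.098, and Rab33b, a Golgi Rab that binds the autophagy protein ATG16L1, at 0.073.

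Early endosome Rabs were split evenly, 3 of 6 probes on each side of 0. Rab5b, one of the RAB5 isoforms that drive fusion of early endosomes, had one probe with 253 on the overexpression array and 228 on the control array (0.31, or 1.24-fold higher, just under the 0.32 mark). The difference of that probe was 0.20 in the authors' values and 0.35 with median centring. Its other probe had 304 and 318 on these arrays and a difference of 0.006, so the higher value was not shared by both probes. Rab5c, the isoform with signals of 6330 and 6690 on the overexpression and control arrays, was at -0.009. Rab21, which carries integrins inward, was at 0.12. Rab22a, a regulator of endosomal recycling, was at -0.15 and Rab31, a relative of it that links the Golgi and endosomes, at -0.12, with 11679 on the overexpression array and 13320 on the control array.

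Of the recycling Rabs 5 of 6 probes lay within 0.1 of no difference, beside 4226 of all 8005 detected probes. Rab11b, with Rab11a the main regulator of recycling endosomes, had 16511 on the overexpression array and 17304 on the control array (-0.027), and Rab11a was at -0.071. Rab14 was at 0.073, Rab35, which returns cargo quickly from the early endosome, at -0.044, and Rab4a, of the fast recycling route, at 0.077. Rab4b, the relative of Rab4a, had signals of 307 on the overexpression array and 356 on the control array and stood apart from this group at -0.19.

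Among Rabs of late endosomes, lysosomes and lysosome-related organelles, 5 of 8 probes were below 0. Rab7, the regulator of late endosome and lysosome fusion that recruits HOPS, had 3 detected probes, all below 0. The first had 4729 on the overexpression array and 5667 on the control array (-0.19). The second had 346 on the overexpression array and 399 on the control array (-0.18), and the third 437 and 474 on these arrays (-0.059). Rab12, which directs cargo from recycling endosomes to lysosomes, lay on the other side at 0.19, with 841 on the overexpression array and 795 on the control array. Rab29, a Golgi and lysosome Rab that recruits the kinase LRRK2, was at -0.044, Rab32, of mitochondria and melanosomes, at 0.043, Rab9, of the route from endosomes to the Golgi, at -0.077, and Rab7b at 0.10.

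Exocytic and secretory Rabs had 6 of 9 probes below 0. Within 0.1 of no difference lay 7 of the 9, beside 4226 of all 8005 detected probes. Rab10, needed for insertion of the glucose transporter GLUT4 and for axon growth, had one probe with 1019 on the overexpression array and 1239 on the control array (-0.20), and another at -0.047. Rab3d, a Rab of secretory granules, had 236 and 268 on these arrays (-0.20), near the lowest detected signals. The probes of Rab8a lay at -0.053 and -0.046, and those of Rab8b, its close relative in exocytosis and cilium growth, at 0.057 and 0.023. Rab3b was at -0.076 and Rab13, of tight junctions, at 0.004. Of the remaining Rabs, Rab23, a regulator of Hedgehog signalling, was at -0.009, and the probes of Rab24, which acts in autophagy, were at -0.11 and 0.015.

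**Figure D2:**
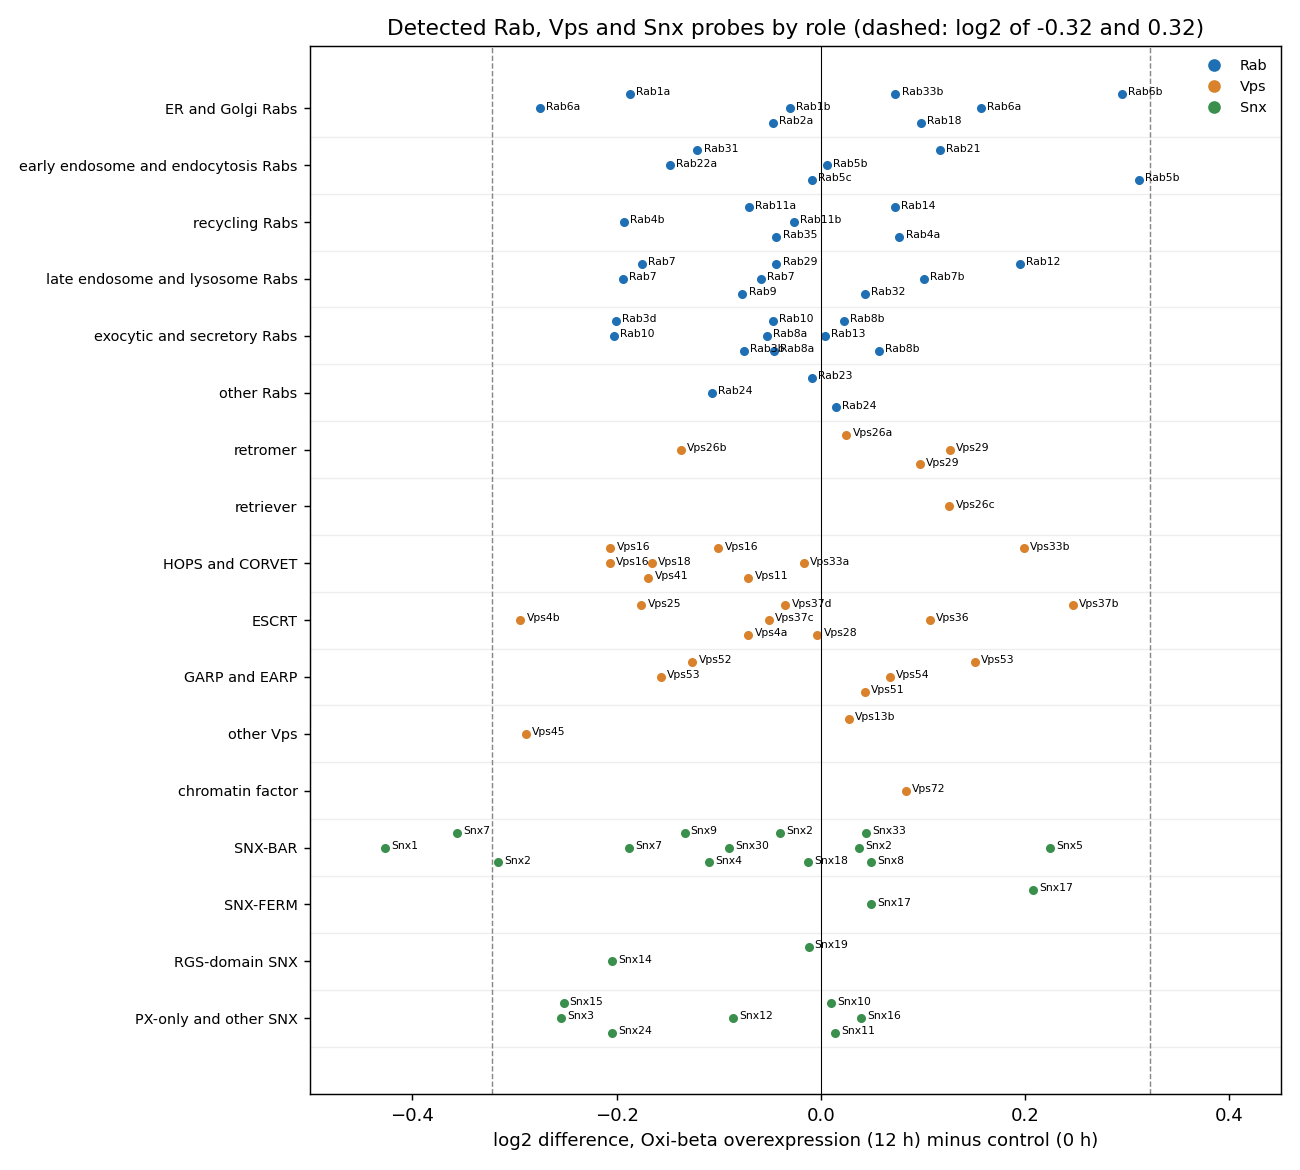
Log2 difference of each of the 93 detected member probes (x axis, overexpression minus control), grouped by role (rows), with -0.32 and 0.32 marked by dashed lines. Snx1 and a probe of Snx7 lie left of the lower line, and no probe lies right of the upper line. In the HOPS and CORVET row, which includes Vps33b, 7 of 8 probes lie left of 0.

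The HOPS and CORVET subunits lay mostly on the lower side, each by a small amount. The group, in which Vps33b was counted, had 8 detected probes for 6 genes. Of these probes 7 were below 0, with a median of -0.13, and 0 passed the 0.32 mark. Below 0 lay 60.2% of the 93 members and 50.5% of all detected probes. The role groups were formed after the members' values were seen, and this one is among the most one-sided of them. Its share is thus a description only. Vps16, a core subunit of both tethers, had 3 probes, all below 0. The first had 1625 on the overexpression array and 1983 on the control array (-0.21). The second had 233 and 264 (-0.21), and the third 492 and 552 (-0.10). Vps18, a core subunit with a RING domain, had 1594 on the overexpression array and 1890 on the control array (-0.17). Vps41, the HOPS subunit that binds vesicle membranes, had 518 and 604 on these arrays by its detected probe (-0.17). Vps11 was at -0.071 and Vps33a, which holds SNAREs for assembly, at -0.017. The exception was Vps33b, a relative of Vps33a that works with VIPAS39 in another tether, at 0.20, with signals of 245 on the overexpression array and 232 on the control array. The differences of this group are smaller than 0.32 throughout. Probes of 1 gene are not independent of each other, and 3 of the 7 lower probes are of Vps16.

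Retromer subunits with detected probes lay on both sides of 0, from -0.14 to 0.13. Vps29, the subunit with a phosphoesterase fold, was at 0.13 and 0.097 by its 2 probes. Vps26a, an arrestin-like subunit, had 7016 on the overexpression array and 7237 on the control array (0.025), and its isoform Vps26b had 645 and 744 (-0.14). Vps26c, the related subunit of the retriever complex, was at 0.13. The membrane-bending partner Snx1 was thus the member of this sorting route with the lowest value, while its relative Snx2 depended on the probe. One probe of Snx2 had 233 on the overexpression array and 277 on the control array (-0.32, just short of the mark). The others had 3721 and 4017 (-0.040) and 615 and 638 (0.038) on these arrays. Snx5, a partner of SNX1 and SNX2, had 268 on the overexpression array and 251 on the control array (0.22, and 0.15 in the authors' values).

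ESCRT subunits sort ubiquitinated receptors into multivesicular bodies, and 6 of 8 detected probes were below 0 with a median of -0.043. Vps4b, one of the ATPases that take the ESCRT-III filament apart, had 207 on the overexpression array and 240.2 on the control array (-0.29), close to the lowest detected signals. In the authors' values its difference was -0.18, smaller than that of Vps45 there (-0.25). Vps4a, the other ATPase, had 2492 and 2761 on these arrays (-0.071). Vps37b of ESCRT-I was on the higher side, with 1509 on the overexpression array and 1363 on the control array (0.25, the highest Vps value). Its relatives Vps37c and Vps37d were at -0.051 and -0.035 and the ESCRT-I subunit Vps28, with 10637 on the overexpression array and 11290 on the control array, at -0.004. The ESCRT-II subunits went apart, Vps25 at -0.18 and Vps36 at 0.11.

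GARP tethers endosome-derived vesicles at the Golgi, and its 5 probes had a median of 0.043. The 2 probes of Vps53 went in opposite directions, one with 2969 on the overexpression array and 3509 on the control array (-0.16) and one with 245 and 237 (0.15). Vps52 was at -0.13, Vps51 at 0.043 and Vps54 at 0.067. Vps45, a protein that guides SNARE assembly on endosomes, had 526 on the overexpression array and 660 on the control array (-0.29). Vps13b, a lipid transfer protein of the Golgi, was at 0.027 by its detected probe. Vps72 shares the name but is known as a subunit of chromatin remodelling complexes, and was at 0.083.

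**Figure D3:**
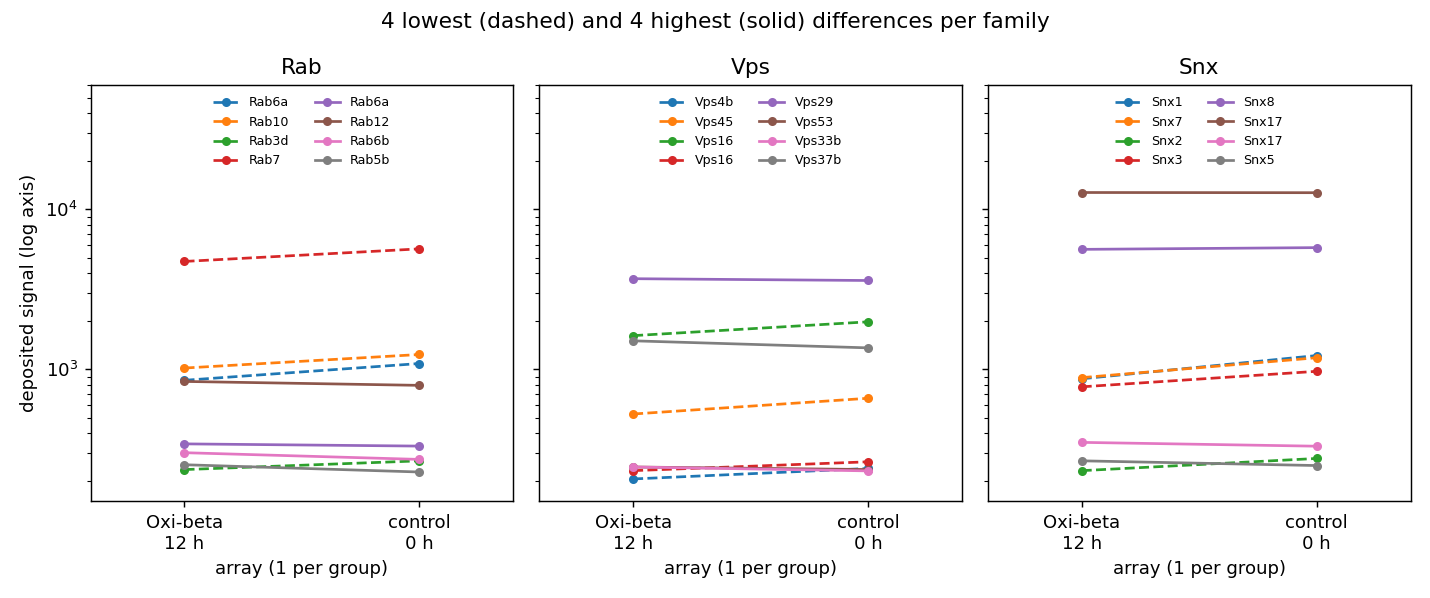
Deposited signals (y axis, log scale) of the 4 lowest (dashed) and 4 highest (solid) differences of each family on the overexpression array (left) and the control array (right), 1 array per group and 1 line per probe. The lines are nearly level, with Snx1 at 873 and 1220.1 among the steepest.

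The remaining sorting nexins ran from -0.25 (Snx3) to 0.21 (a probe of Snx17). Among all 13 SNX-BAR probes 9 were below 0, with a median of -0.090. Snx4, a recycling nexin, had 2679 on the overexpression array and 3053 on the control array (-0.11), Snx30, its other relative, was at -0.090, and Snx9, which acts with dynamin in endocytosis, at -0.13. Snx18, a relative of Snx9, had 12387 on the overexpression array and 12869 on the control array (-0.012), and Snx33 (0.045) and Snx8 (0.049) also lay close to 0. Snx17, which recycles integrins and LRP1 through its FERM domain, had 12755 on the overexpression array and 12720 on the control array by one probe (0.049), and 350 and 331 by the other (0.21).

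Another 7 probes were for nexins with a PX domain and no BAR or FERM domain, apart from Snx14 and its relative Snx19, which were grouped together. Snx3, needed for retrieval of the Wnt carrier Wntless, had 778 on the overexpression array and 972 on the control array (-0.25). Snx15, which carries a microtubule interacting domain, had 234 and 271 (-0.25), and Snx24 had 1389 and 1678 (-0.20). Snx12 was at -0.086, and Snx10 (0.010), Snx11 (0.014) and Snx16 (0.039) lay on the other side of 0. Snx14, a lipid droplet and endoplasmic reticulum protein with an RGS domain, had 477 on the overexpression array and 567 on the control array (-0.20), and its relative Snx19 was at -0.012.

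Probes of the same gene give a measure of how far these values can be trusted, although it is one of probes and not of samples. For 13 member genes with several probes detected on both arrays the root mean square of their SD was 0.146 (log2), and over all 999 such genes 0.149. In 9 of the 13 genes all probes lay on the same side of 0, and in Rab6a, Rab24, Snx2 and Vps53 they did not. Over all 999 such genes, the probes lay on the same side in 499 and on opposite sides in 500. The gap between the highest and lowest probe was 0.43 for Rab6a, which is as large as the difference of Snx1. Differences also scattered more at low signal: their SD was 0.178 over 27 probes with a mean signal under 400, and 0.130 over 66 probes at or above it. Snx1 had 1 probe, so no second reading of it could be set beside the first.

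**Figure D4:**
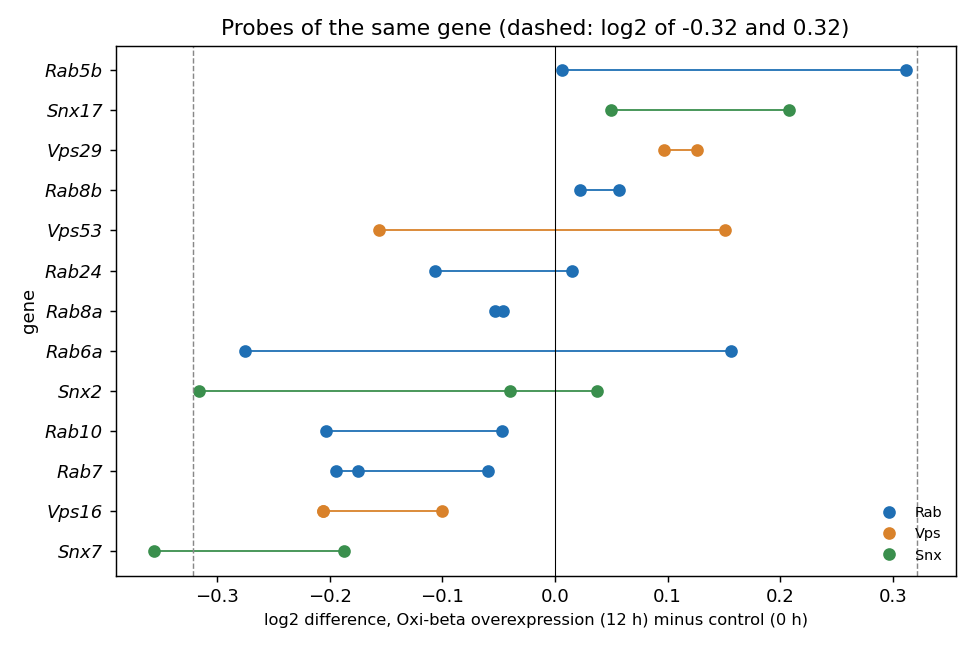
Log2 difference (x axis, overexpression minus control) of each probe for the 13 genes with several detected probes (rows), joined by a line per gene, with -0.32 and 0.32 marked by dashed lines. The 3 probes of Rab7, the 3 of Vps16 and the 2 of Snx7 stay left of 0, and those of Rab6a and Vps53 lie on both sides.

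The machinery around these families was also close to level. In 11 lists of trafficking genes without a Rab, Vps or Snx symbol, 179 genes were detected, with a median of -0.021. Of these 1 was at least 0.32 higher and 3 at least 0.32 lower, beside 2.72% and 2.83% of all 6703 detected genes. In the authors' values and without background correction 0 were lower by that much, beside 1.15% of all detected genes. None was 1.5-fold higher or lower, beside 0.597% and 0.433%. Differences below 0 were found for 104 of them, and for 51.0% of all detected genes. Mitd1, which binds ESCRT-III during the last step of cell division, had 1423 on the overexpression array and 1125 on the control array (0.46, or 1.37-fold higher). On the lower side, Atg14, a subunit of the autophagy form of the PI3-kinase VPS34, had 228 and 276 (-0.36, and -0.23 in the authors' values), and Trappc6a, a subunit of the TRAPP complexes, had 353 and 444 (-0.34, and -0.26 in the authors' values). Micall2, an effector of RAB8 and RAB13, had 189 on the overexpression array, not well above background there, and 229 on the control array. Its fitted difference of -0.43 was -0.25 in the authors' values.

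Regulators of Rab activity lay on both sides. Of 27 detected genes of exchange factors 16 were below 0 (median -0.024), and Trappc5 was highest at 0.28. Of 24 GAPs 15 were below 0 (median -0.026), from Rabgap1l at -0.26 to Tbc1d20, which acts on RAB1, at 0.27. Of 6 genes of prenylation and membrane extraction 4 were below 0, with Rabggtb, the catalytic subunit that prenylates Rabs, at 0.26 (6532.5 on the overexpression array and 5768 on the control array) and Rabif at -0.089. Of 18 effectors 9 were below 0, and among those detected on both arrays Bicd2, a dynein adaptor that binds RAB6, was lowest at -0.32, just short of the mark, and Mical3 highest at 0.20.

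Coats and tethers were similar. Of 17 ESCRT genes without a Vps symbol 11 were below 0 (median -0.027), with Ubap1 of ESCRT-I lowest at -0.23. In the list of the WASH complex and sorted receptors the transferrin receptor gene Tfrc had 4764 on the overexpression array and 4048 on the control array (0.32, just under the mark, and 0.35 with median centring), and Washc5 was at -0.27. Of 8 genes for PI3P kinases and phosphatases and their subunits or partners, 6 were below 0 (median -0.085), and Mtmr3 was highest at 0.047. Of 7 exocyst genes 6 were below 0 (median -0.041), from Exoc7 at -0.14 to Exoc2 at 0.12. The COG tether had a median of 0.052 over 5 genes, from Cog2 at -0.20 to Cog3 at 0.17. Clathrin and its adaptors had a median of -0.029 over 24 genes, from the heavy chain gene Cltc at -0.27 to the light chain gene Clta at 0.17. The SNARE list had a median of 0.014 over 29 genes, from Stx5a at -0.26 to Stx7, a late endosomal SNARE, at 0.27.

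**Figure D5:**
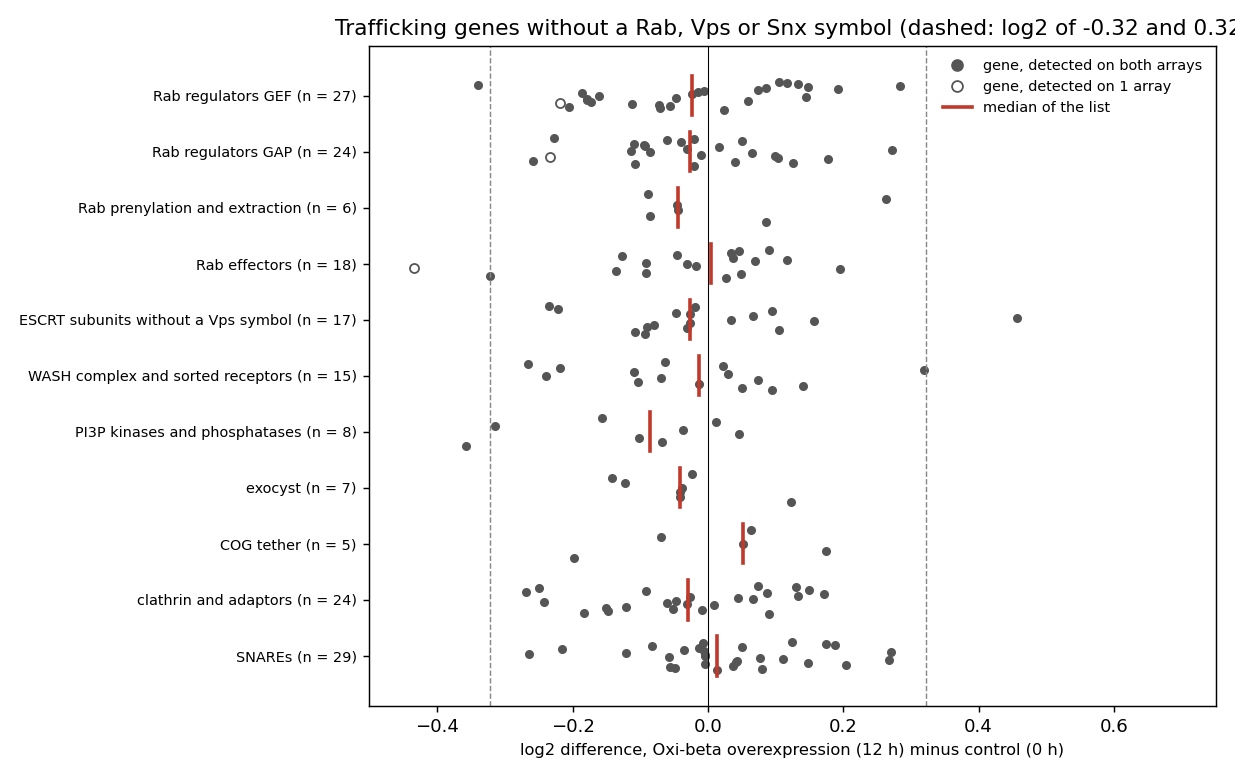
Log2 difference (x axis, overexpression minus control) of each detected gene in 11 lists of trafficking machinery (rows), with the list's median in red, genes detected on 1 array as open circles and -0.32 and 0.32 marked by dashed lines. The medians lie between -0.085 and 0.052, and Mitd1 at 0.46 is the point farthest right.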

How the data were processed

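RNA of 1 array of SN4741 cells overexpressing Oxi-beta (12 h) and 1 control array (0 h), each a pool of 3 samples per the labels, was measured on Illumina arrays. The submitters' processing notes name BeadStudio, and no build is given in the sources used here. The deposited table holds, per the file headers, a non-normalized signal intensity and a detection p-value per probe and array. For 11090 probes the authors also deposited log2 values, whose quantile normalization and log2 scale are read from the values. The test column was assigned to the overexpression sample: the authors' overexpression values correlated with its log2 signal across probes at r = 0.99998, against 0.99613 with the control column.

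Signals were background-corrected with limma 3.58.1 in R 4.3.3 (nec, offset 16) and then quantile-normalized as log2 values, which assumes equal distributions on both arrays. A probe was detected at p under 0.01 on at least 1 array. Among members the weakest inside this limit had 0.0085 (a Rab8a probe) and the nearest outside 0.0109 (probes of Snx19 and Vps26a). Genes in the lists were represented by the detected probe of highest mean level. Symbols came from the platform annotation, sequences from RefSeq (GRCm38.p6). No test between groups was possible. Alternatives covered background, scaling, the authors' values, detection and several probes of a gene. Members, lists and marks were chosen with earlier results of these data known, and the role groups and motifs after the members' values were seen. Every detected member is named; the highest, lowest and brightest of each family and genes with several probes were described more fully, and of each list the highest and lowest gene detected on both arrays. Precision is limited by the single array of each group. Cross-reaction of probes between close relatives was not tested. The Vps gene left out is not reported here.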

Additional observations from a re-analysis of the deposited data

How the results depend on the processing

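Under 9 alternatives the count of members lower by 0.32 (log2) or more was 2 in 7 of them, beside 1.20% to 2.83% of all features. Of these 7, requiring detection on both arrays and bounding probes detected on 1 array could not change it, since 0 members were detected on 1 array only. The authors' values were nearly those without background correction, so these 2 settings are not independent. The count of lower members was 4 of 106 (3.77%) with a detection p under 0.05, beside 5.43% (adding undetected probes of Rab27b and Vps39). It was 1 of 77 (1.30%) with probes averaged per gene, beside 2.73%, where Snx7 came to -0.27. The count higher by as much was 1 with median centring (Rab5b, 0.35) and 1 with a detection p under 0.05 (Rab25), and 0 otherwise. At 1.5-fold it was 1 lower with a detection p under 0.05 (Rab27b) and 0 in either direction otherwise. All family medians stayed below 0 under these alternatives, but several moved by over 1.5 times. With median centring the Rab median was -0.0025, that of Vps -0.019 and that of Snx -0.042, where the median of all detected probes was 0.020. The Vps median was -0.017 both with a detection p under 0.05 and with probes averaged per gene. Which probe was at the end of a family's range changed too: Vps45 was below Vps4b with each other background or scaling, and in the authors' values Rab6b (0.203) was above Rab5b (0.197) and Snx17 (0.153) above Snx5 (0.147). For the 179 genes of the trafficking lists the same settings were added after seeing the data. The 3 lower genes became 1 with offset 50 and with median centring (Micall2), and 0 without background correction and in the authors' values. The 1 higher gene became 2 with median centring (Mitd1 and Tfrc) and stayed 1 otherwise. Of 93 member differences 88 kept their side of 0 under the background and scaling alternatives. The others were Rab11b, Rab23, Rab5c, Snx18 and Vps28, all within 0.1, which were above 0 with median centring. Snx1 was at -0.39 and Snx7 at -0.33 in the authors' values. Leaving out a replicate was not run, since each group had 1 array, and no paired analysis was possible because no group had a second sample. Signals near the lowest detected one limit the dim probes most.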

Other observations

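The 13 member probes detected on neither array at p under 0.01 had signals close to background and were left out of the comparisons. They were the only named probes of Rab25, Rab27a, Rab27b, Rab33a, Rab36, Rab38 and Vps39, and further probes of Snx3, Snx5, Snx19, Vps13b, Vps26a and Vps41. Rab27b, a Rab of secretory granule and exosome release, had 135 on the overexpression array and 178 on the control array. Its fitted difference of -0.75 was -0.38 in the authors' values, and its detection p-values were 0.0791 and 0.0146 on these arrays. Vps39, a HOPS subunit, had 127 and 154 with a fitted difference of -0.52, and Rab25, a recycling Rab of epithelia, had 150.2 and 132 with 0.37. No comparison rests on these probes.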
